A study of Mus musculus with 11 samples.

Results

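Transcripts of neutrophil chemokines and alarmins were followed in whole mouse skin through 9 genes, picked by symbol from the 49315 genes of the count table. They are the chemokine genes Cxcl1, Cxcl2 and Cxcl5, the receptor genes Cxcr2 and Csf3r, the alarmin and antimicrobial protein genes S100a8, S100a9 and Lcn2, and Ly6g, whose product is the surface protein by which mouse neutrophils are recognised. Of the 9 genes, 8 passed the expression filter and were tested among 18375 genes, and Ly6g, at 2 counts or fewer in every library, did not. Neutrophils leave the blood along gradients of CXC chemokines, which bind the receptor CXCR2 on their surface, and the cytokine G-CSF drives their production and survival through the receptor encoded by Csf3r. S100A8 and S100A9 pair into calprotectin, a metal-binding complex that fills the neutrophil cytosol and is also made by keratinocytes under stress, and the lipocalin encoded by Lcn2 withholds iron from bacteria. Keratinocytes, fibroblasts and macrophages of the skin can make these chemokines when TNF or interleukin receptors are active.

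The skin came from 11 Foxp3-DTR mice on a C57BL/6J background, 1 mouse per library, in which the diphtheria toxin (DT) receptor is expressed under Foxp3, so that DT removes Foxp3-expressing cells, chiefly regulatory T cells (Tregs). PBS mice (the study's control, n = 2) received PBS and no DT. EarlyDT mice (ΔETreg, n = 3) were given DT at 30 ng per g on postnatal day (P) 6 and P8 and harvested on P9. LateDT mice (ΔLTreg, n = 3) received the same dose on P10 and P12, and FullDT mice (ΔTreg, n = 3) on P6, P8, P10 and P12, and both were harvested on P13. The study calls its controls age-matched, and a figure legend sets controls beside ΔETreg skin on P9 and beside ΔLTreg skin on P13. No harvest day is given for either PBS library itself, so age and treatment cannot be told apart against PBS. The 3 comparisons with PBS share the same 2 libraries. EarlyDT mice were younger at harvest than LateDT and FullDT mice, whereas FullDT and LateDT mice shared the harvest day and differed by the doses on P6 and P8. Mice without the receptor that were given DT were not analysed here, so an effect of the toxin itself was not tested. Read from Xist and Ddx3y, the groups held 1 male and 1 female (PBS), 2 males and 1 female (EarlyDT), and 1 male and 2 females (LateDT, and likewise FullDT). Total counts per library ranged from 23377571 to 34159435. Levels are given as counts or as CPM, which are counts scaled to TMM-adjusted library sizes. The floor of a library was set at 3 counts, which equalled 0.0891 to 0.129 CPM. Floors and counting intervals cover counting error only, and p-values rest on the 2 or 3 mice of each group.

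Skin tissue markers (Krt5, Krt14, Krt1, Krt10, Lor and the collagen genes Col1a1, Col1a2 and Col3a1) were abundant in all 11 libraries, with a summed level from 19521 to 37368 CPM and Col1a1 as the most abundant gene. Between FullDT and PBS skin, 1 of these 8 genes was higher and 4 were lower. Krt14, a keratin of basal keratinocytes, had a log2 fold change of 0.40 (SE, the standard error, 0.103, Benjamini-Hochberg adjusted p = 0.0180 by edgeR's quasi-likelihood test), and Krt1, a keratin of the upper epidermis, of -1.93 (SE 0.279, adjusted p = 0.000664). Col1a2 also fell, with a log2 fold change of -1.07 (SE 0.289, adjusted p = 0.0228 from the same edgeR test). Krt1 was lower in LateDT skin too (log2 fold change -1.50, adjusted p = 0.0141 from the same edgeR test), and no marker of this list passed in EarlyDT skin against PBS. Between FullDT and LateDT skin, which shared the harvest day, 0 of the 8 genes passed in that test.

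Between FullDT and PBS skin, all 8 tested genes passed an adjusted p of 0.05, each in the upward direction. Among all genes tested, 21.5% passed and 12.1% passed as higher. Cxcl5 had passed the expression filter only through its counts in FullDT skin and so had to differ there. The 7 genes that passed the filter without FullDT skin had a median log2 fold change of 2.38, against -0.01 over all genes tested. Between LateDT and PBS skin, 1 of the 8 genes passed (S100a9, higher), where 4.55% of all genes did. Between EarlyDT and PBS skin, 0 of the 8 genes passed by edgeR's quasi-likelihood test, where 0.00544% of all genes did. In that comparison 4 of the 8 had an unadjusted p under 0.05, Cxcl1 and Cxcl2 with higher and S100a9 and Csf3r with lower values in EarlyDT skin, as had 872 of the 18375 genes tested, and DESeq2's Wald test also called 0. Between FullDT and LateDT skin, both harvested on P13, 5 of the 8 genes passed (4 without Cxcl5), all higher in FullDT skin, where 16.8% of all genes passed and 10.7% passed as higher. The count was 6 of 8 (5 without Cxcl5), all higher, for FullDT against EarlyDT skin, where 23.1% of all genes passed and 13.2% passed as higher. For EarlyDT against LateDT skin it was 2 of 8, both lower in EarlyDT skin, where 6.38% of all genes passed. Without PBS replicate 2, the male control, 4 of the 8 genes passed between FullDT and PBS skin, and 2026 genes in all in place of 3946. Without EarlyDT replicate 2, or without replicate 3, 1 of the 8 genes in place of 2 passed between EarlyDT and LateDT skin. Genes in all were then 353 and 619 in place of 1173. In bulk tissue, a change in the number of cells of a type and a change in RNA per cell cannot be told apart.

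**Figure D1:**
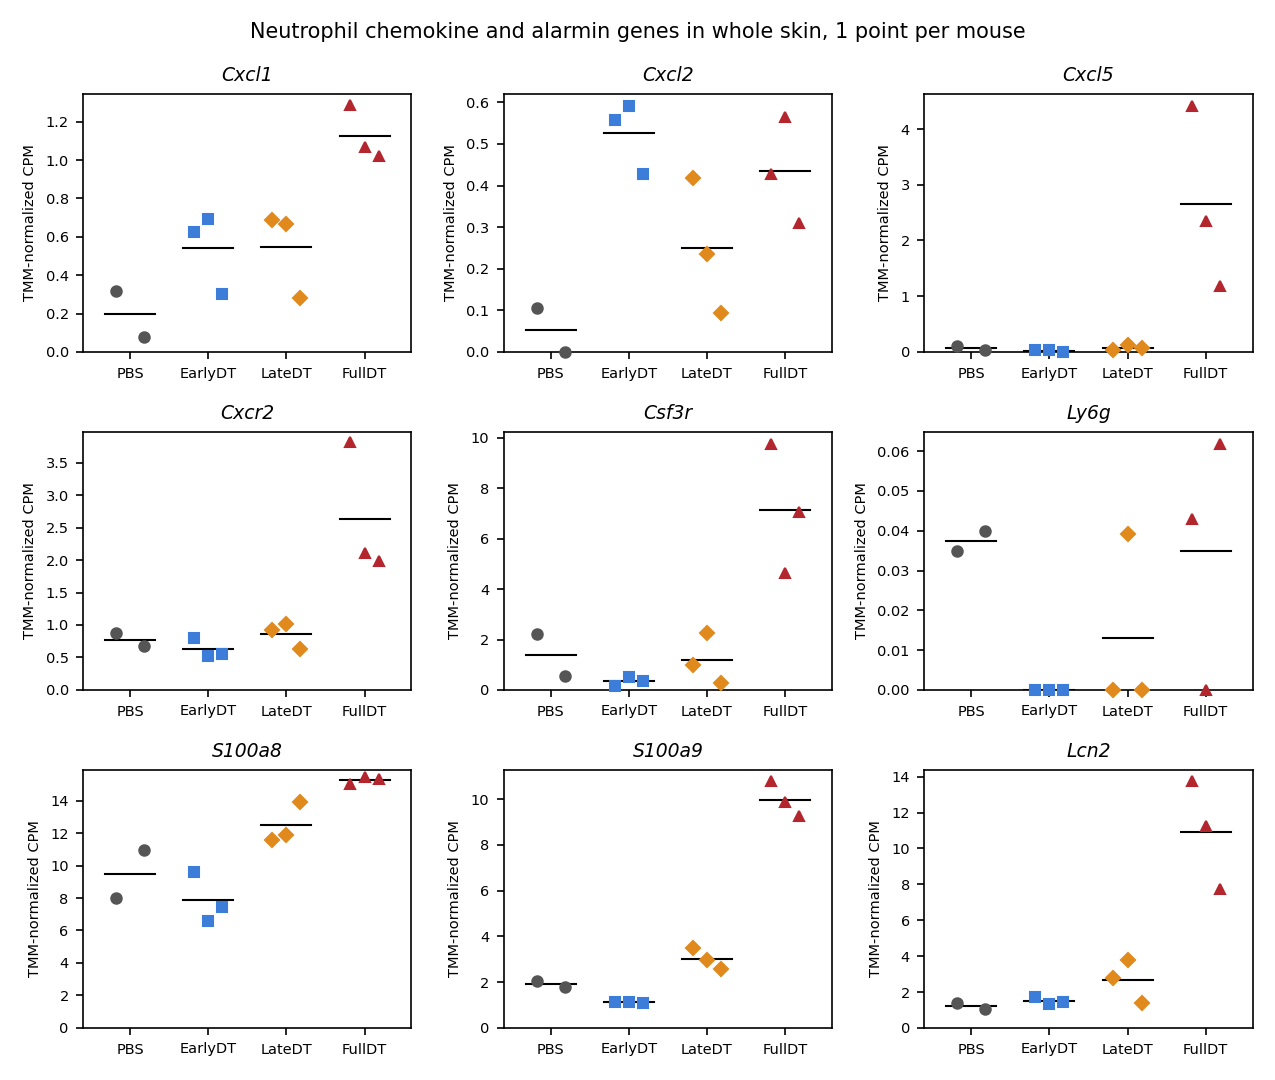
TMM-normalized CPM of the 9 genes in each library, with the 4 groups along the horizontal axis, 1 point per mouse and a bar at the group mean. FullDT mice lay above both PBS mice for every gene but Ly6g, which stayed at or under 2 counts in all 11 libraries. The share of all genes tested that were likewise apart was not counted.

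The chemokine genes lie on chromosome 5 of GRCm38 in the CXC cluster, with Cxcl5 (90759360 to 90761624) 129.6 kb before Cxcl1 (90891241 to 90893115), and Cxcl2 (90903871 to 90905938) 10.8 kb beyond Cxcl1. Cxcl1, whose product is a ligand of CXCR2 made by many skin cells, had 9 and 2 counts in the PBS mice, 18, 21 and 7 in EarlyDT, 23, 17 and 9 in LateDT and 30, 36 and 33 in FullDT mice. Every FullDT mouse was above every mouse of the other groups in CPM, while the EarlyDT and LateDT mice spread over nearly the same range and 1 mouse of each lay below PBS replicate 1. The level was 0.197 ± 0.167 CPM in PBS (SD, n = 2), 0.539 ± 0.209 in EarlyDT (SD, n = 3), 0.545 ± 0.228 in LateDT (SD, n = 3) and 1.13 ± 0.142 in FullDT skin (SD, n = 3). Cxcl1 rose in FullDT against PBS skin with a log2 fold change of 2.43 (SE 0.531, Benjamini-Hochberg adjusted p = 0.00785 by edgeR's quasi-likelihood test). Without PBS replicate 2 the log2 fold change was 1.80 and the adjusted p 0.0803 in the same edgeR test, and without PBS replicate 1 it was 3.74. Against LateDT skin the FullDT value was 1.04 on the log2 scale (SE 0.379, adjusted p = 0.0876 from the same edgeR test), which passed only with no filter on low counts (adjusted p = 0.0197).

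Cxcl2, a closely related ligand of CXCR2, had 3 and 0 counts in the PBS mice, 16, 18 and 10 in EarlyDT, 14, 6 and 3 in LateDT and 10, 19 and 10 in FullDT mice. The EarlyDT mice (0.526 ± 0.0860 CPM, SD, n = 3) overlapped the FullDT mice (0.434 ± 0.128, SD, n = 3), and both groups lay above PBS, whereas the LateDT mouse with 3 counts lay within the PBS range. With 3 counts in PBS skin in all, the ratio of rates was 7.81 for FullDT against PBS (exact 95% interval 2.48 to 39.5), 9.54 for EarlyDT (3.06 to 48.0) and 4.52 for LateDT (1.37 to 23.5). After Benjamini-Hochberg adjustment of edgeR's quasi-likelihood p-values, Cxcl2 passed in FullDT skin (log2 fold change 2.87, SE 0.810, adjusted p = 0.0278). The EarlyDT value did not pass (log2 fold change 3.16, SE 0.789, adjusted p = 0.808 from the same edgeR test), although its point estimate was the larger, and it passed with no filter on low counts (adjusted p = 0.0250). It was 6.95 without PBS replicate 1 and 2.29 without PBS replicate 2. Compared directly, FullDT and EarlyDT skin differed by -0.28 on the log2 scale (SE 0.451, adjusted p = 0.714 from the same edgeR test). The FullDT call was lost without PBS replicate 2 (log2 fold change 2.00, adjusted p = 0.173 from the same edgeR test), without FullDT replicate 1 (adjusted p = 0.0572) and without FullDT replicate 2 (adjusted p = 0.0808). Without PBS replicate 1, which held all 3 control counts, the fitted value was 6.66.

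Cxcl5, a CXCR2 ligand typical of epithelial cells, had 3 and 1 counts in the PBS mice, 1, 1 and 0 in EarlyDT, 1, 3 and 2 in LateDT and 103, 79 and 38 in FullDT mice. Every library outside the FullDT group was at or under the floor, so fitted folds between those groups rest on floor counts alone. The FullDT mice themselves ranged from 1.17 to 4.42 CPM. The ratio of rates was 33.0 for FullDT against PBS skin (exact 95% interval 12.7 to 122), 37.3 against LateDT (16.9 to 103) and 102 against EarlyDT skin (27.8 to 844). As Cxcl5 was admitted to the tests only through FullDT skin, its calls there carry no weight, and these rates only describe the counts. The fitted log2 fold change against PBS was 5.04, and 5.87 without PBS replicate 1.

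A list of 7 neutrophil chemoattractant ligands holds these genes and 4 more of the same cluster. Without Cxcl5 and Cxcl3, which passed the expression filter only through FullDT skin, 3 of its genes were tested, and 2 were higher and 0 lower between FullDT and PBS skin. Cxcl3, a further CXCR2 ligand, had 0 counts in every PBS and EarlyDT mouse, 1, 2 and 0 in LateDT and 25, 26 and 23 in FullDT mice. The exact 95% lower limit of the ratio of rates was 11.7 for FullDT against PBS and 18.1 against EarlyDT skin, and the ratio of rates to LateDT skin was 25.1 (exact 95% interval 8.27 to 124.6). Pf4, a platelet chemokine and the most abundant gene of the list in each library, had a log2 fold change of 0.26 (Benjamini-Hochberg adjusted p = 0.630 by edgeR's quasi-likelihood test) and was named after its values were seen. Summed over the list, the level was 8.65 and 7.49 CPM in PBS, 9.58, 9.56 and 6.13 in EarlyDT, 7.03, 7.53 and 2.69 in LateDT and 16.1, 12.98 and 13.8 in FullDT mice, of which Pf4 made up 54.0% to 94.7%. Cxcl15 was at or under the floor in all libraries. For LateDT and for EarlyDT skin against PBS, 0 of these 3 genes passed in edgeR's test, and 0 passed between FullDT and LateDT skin.

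Cxcr2 (chromosome 1, 74153989 to 74161246), the receptor of these ligands on neutrophils, had 25 and 17 counts in the PBS mice, 23, 16 and 13 in EarlyDT, 31, 26 and 20 in LateDT and 89, 71 and 64 in FullDT mice. In CPM the FullDT mice stood clear of every other mouse, and the PBS, EarlyDT and LateDT mice overlapped. The level was 0.776 ± 0.140 CPM in PBS (SD, n = 2), 0.628 ± 0.151 in EarlyDT (SD, n = 3), 0.857 ± 0.205 in LateDT (SD, n = 3) and 2.63 ± 1.03 in FullDT skin (SD, n = 3). Cxcr2 rose in FullDT against PBS skin by 1.73 on the log2 scale (SE 0.350, Benjamini-Hochberg adjusted p = 0.00512 by edgeR's quasi-likelihood test) and against LateDT skin by 1.60 (SE 0.296, adjusted p = 0.00351). Without PBS replicate 2 the first of these was 1.55, with an adjusted p of 0.0607 in the same edgeR test. Against PBS, the log2 fold change was 0.12 in LateDT and -0.31 in EarlyDT skin (from -0.52 to -0.10 with 1 library left out), and neither passed.

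Csf3r (chromosome 4, 126024550 to 126044440), the receptor of G-CSF, had 63 and 14 counts in the PBS mice, 5, 16 and 8 in EarlyDT, 33, 58 and 9 in LateDT and 228, 156 and 228 in FullDT mice. The FullDT mice were high throughout, whereas mice within the PBS group and within the LateDT group differed several-fold. In both of those groups the male mouse was the lowest, but in EarlyDT and FullDT skin a female was. In CPM all 3 EarlyDT mice, male and female, were below both PBS mice, but EarlyDT replicate 2 (0.526) was close to PBS replicate 2 (0.558). A log2 fold change of 2.33 was found for FullDT against PBS skin (SE 0.650, Benjamini-Hochberg adjusted p = 0.0264 by edgeR's quasi-likelihood test), and of 2.64 for FullDT against LateDT skin (SE 0.570, adjusted p = 0.00877). The call against PBS was lost without PBS replicate 2 (log2 fold change 1.68, adjusted p = 0.194 from the same edgeR test), without FullDT replicate 1 (2.04, adjusted p = 0.0792) and without FullDT replicate 3 (2.34, adjusted p = 0.0546). The value against PBS was 3.66 without PBS replicate 1, and the value against LateDT skin was 3.46 without LateDT replicate 2. EarlyDT skin had a log2 fold change of -1.99 against PBS (SE 0.848, adjusted p = 1.00 from the same edgeR test), which passed only with no filter on low counts (adjusted p = 0.00585) and was -0.66 without PBS replicate 1 and -2.64 without PBS replicate 2. The LateDT value of -0.31 was 1.02 without PBS replicate 1 and 0.17 without LateDT replicate 3.

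A pair of monocyte genes, picked after their values were seen, was likewise lowest in the male PBS mouse and in the male LateDT mouse. Because the pair was chosen with these values known, the likeness to Csf3r carries no weight as a test. Ly6c2, a surface marker of inflammatory monocytes, had 71 and 3 counts in PBS, 4, 8 and 4 in EarlyDT, 49, 117 and 6 in LateDT and 280, 225 and 288 in FullDT mice. Ccr2, the receptor that draws monocytes into tissue, had 316 and 81 counts in PBS, 67, 104 and 54 in EarlyDT, 245, 306 and 55 in LateDT and 455, 339 and 430 in FullDT mice. Neither passed between FullDT and PBS skin (Benjamini-Hochberg adjusted p = 0.0542 and 0.310 by edgeR's quasi-likelihood test). The part of these cells, or of sex, in the Csf3r values was not tested. A fit with sex as a covariate left all 8 calls between FullDT and PBS skin in place. Those calls do not address the spread within PBS or within LateDT skin.

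The list of 7 neutrophil chemoattractant receptors had 3 higher and 0 lower of 4 genes between FullDT and PBS skin, with a median log2 fold change of 1.51, leaving out Fpr1 and Fpr2, which passed the expression filter only through FullDT skin. Ltb4r1, the leukotriene receptor gene and the most abundant of the list, rose by 1.44 on the log2 scale (SE 0.129, Benjamini-Hochberg adjusted p = 2.86e-05 by edgeR's quasi-likelihood test). Ackr1, a chemokine-binding receptor of venules and red blood cells, rose by 1.59 (SE 0.245, adjusted p = 0.00101), and it was the gene of this list that passed in LateDT against PBS skin (1.04, adjusted p = 0.0393, same edgeR test). The formyl peptide receptor gene Fpr1 had 6 and 0 counts in PBS and 0, 1 and 0 in EarlyDT mice. For EarlyDT against PBS skin 0 genes of the list passed in that test. Between FullDT and LateDT skin, 3 of the 4 were higher. The summed level of the list was 13.3 and 9.56 CPM in PBS, 13.1, 12.3 and 11.4 in EarlyDT, 16.3, 16.5 and 10.9 in LateDT and 34.8, 31.4 and 27.9 in FullDT mice. Cxcr1, the companion receptor of Cxcr2, was at or under the floor in all 11 libraries.

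**Figure D2:**
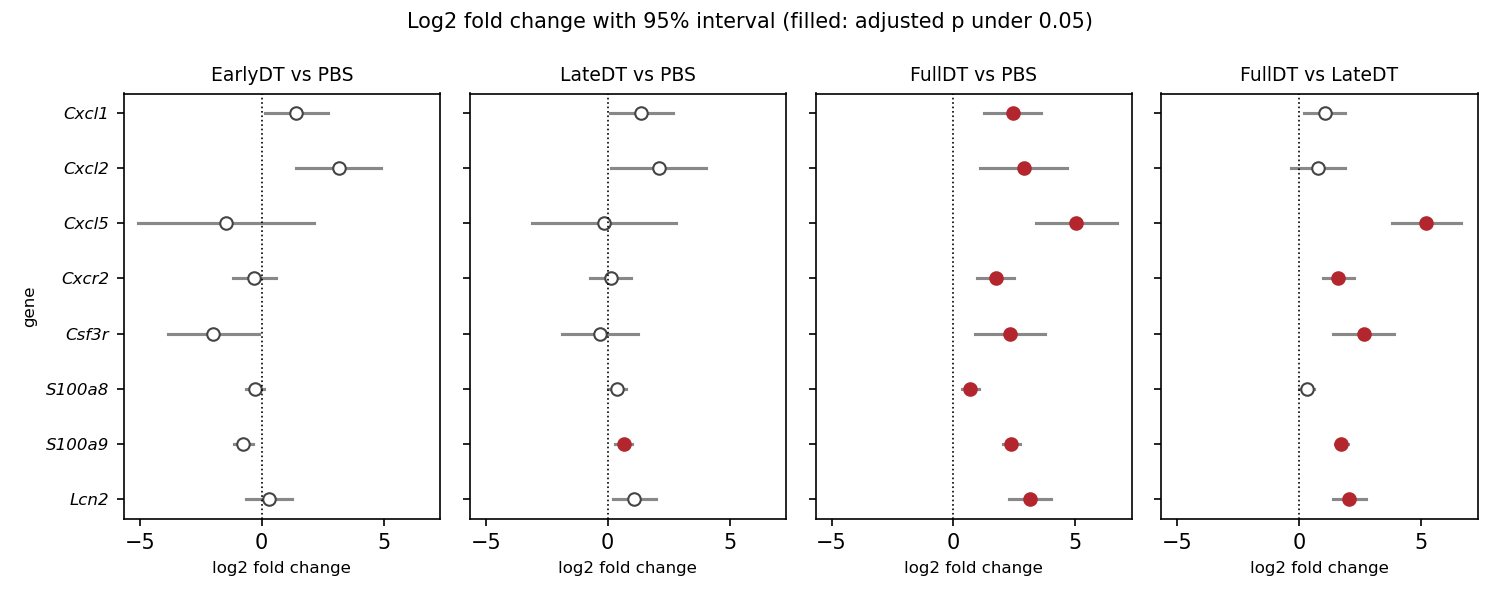
Log2 fold change of the 8 tested genes (points) with 95% intervals (lines) for the 3 comparisons with PBS and for FullDT against LateDT skin, filled where edgeR's adjusted p was under 0.05. All 8 points are filled for FullDT against PBS, where Cxcl5 had to differ, and S100a9 alone for LateDT against PBS.

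S100a8 (chromosome 3, 90668978 to 90670035) had 229 and 275 counts in the PBS mice, 275, 201 and 174 in EarlyDT, 389, 303 and 445 in LateDT and 351, 521 and 496 in FullDT mice. In CPM these were 8.02 and 10.96 in PBS, 9.58, 6.61 and 7.46 in EarlyDT, 11.6, 11.9 and 13.9 in LateDT and 15.1, 15.5 and 15.3 in FullDT mice. The FullDT mice were the highest and almost equal, the LateDT mice came next without touching PBS, and the EarlyDT and PBS mice overlapped. S100a8 rose in FullDT against PBS skin by 0.69 on the log2 scale (SE 0.165, Benjamini-Hochberg adjusted p = 0.0125 by edgeR's quasi-likelihood test). Without PBS replicate 1 the value was 0.48 and the adjusted p 0.103 in the same edgeR test. Neither LateDT against PBS skin (0.40, adjusted p = 0.202 from the same edgeR test, and 0.19 without PBS replicate 1 and 0.64 without PBS replicate 2) nor FullDT against LateDT skin (0.29, 95% interval -0.02 to 0.61, adjusted p = 0.192) passed. EarlyDT skin was below LateDT skin by a log2 fold change of -0.66 (SE 0.147, adjusted p = 0.0254 from the same edgeR test), and this call was lost without EarlyDT replicate 2, EarlyDT replicate 3 or LateDT replicate 3.

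S100a9 (chromosome 3, 90692632 to 90695721, 22.6 kb from S100a8) had 58 and 45 counts in the PBS mice, 33, 35 and 25 in EarlyDT, 117, 76 and 82 in LateDT and 252, 333 and 299 in FullDT mice. Its 4 groups did not overlap in CPM, with EarlyDT lowest (1.12 ± 0.0454, SD, n = 3), then PBS (1.91 ± 0.169, SD, n = 2), LateDT (3.01 ± 0.460, SD, n = 3) and FullDT (9.98 ± 0.785, SD, n = 3). S100a9 rose in FullDT skin by a log2 fold change of 2.38 against PBS (SE 0.159, Benjamini-Hochberg adjusted p = 4.69e-06 by edgeR's quasi-likelihood test) and of 1.72 against LateDT skin (SE 0.128, adjusted p = 9.88e-06). Both calls were kept with each library left out. LateDT skin was higher than PBS by 0.65 (SE 0.162, adjusted p = 0.0468 from the same edgeR test). This call was lost in 10 of the 11 fits that left out 1 library, in all but the fit without LateDT replicate 3, with adjusted p-values from 0.0636 to 0.200 in the same edgeR test. DESeq2's Wald test gave it an adjusted p of 0.0604. EarlyDT skin had a log2 fold change of -0.76 against PBS (SE 0.178, Benjamini-Hochberg adjusted p = 0.808 by edgeR's quasi-likelihood test), with all 3 mice below both PBS mice. Tested directly against LateDT skin it was lower by a log2 fold change of -1.42 (SE 0.153, adjusted p = 0.000905 from the same edgeR test).

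The products of S100a8 and S100a9 act as a pair, but their transcripts did not keep 1 proportion. Per kb of exon, the ratio of S100a8 to S100a9 was 2.97 and 4.60 in the PBS mice, 6.27, 4.32 and 5.24 in EarlyDT, 2.5008, 2.999 and 4.08 in LateDT and 1.05, 1.18 and 1.25 in FullDT mice. FullDT mice had the lowest ratios and did not overlap any other group. How near a ratio is to equal amounts depends on the exon lengths used (694 bases for S100a8 and 522 for S100a9), whereas differences between groups do not. The EarlyDT and LateDT ratios did not overlap either, with geometric means of 5.21 and 3.13. The geometric mean of the ratio was 1.15 in FullDT and 3.13 in LateDT skin (two-sided exact permutation test on the log2 ratio, p = 0.1, the smallest that 3 mice against 3 allow). Against the PBS mean of 3.69, the same exact test gave p = 0.2 for FullDT skin, the smallest that 3 mice against 2 allow.

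Lcn2 (chromosome 2, 32384633 to 32388252) had 40 and 26 counts in the PBS mice, 49, 41 and 34 in EarlyDT, 93, 96 and 45 in LateDT and 321, 379 and 250 in FullDT mice. In CPM the FullDT mice were above all others, LateDT replicate 3, the male, was close to the PBS mice, and its female group mates stood between. The level was 1.22 ± 0.258 CPM in PBS (SD, n = 2), 1.504 ± 0.184 in EarlyDT (SD, n = 3), 2.65 ± 1.18 in LateDT (SD, n = 3) and 10.9 ± 3.03 in FullDT skin (SD, n = 3). Lcn2 rose in FullDT against PBS skin by 3.15 on the log2 scale (SE 0.388, Benjamini-Hochberg adjusted p = 0.000239 by edgeR's quasi-likelihood test) and against LateDT skin by 2.05 (SE 0.299, adjusted p = 0.000814), and both calls were kept with each library left out. LateDT against PBS skin gave 1.09 (SE 0.402, adjusted p = 0.154 from the same edgeR test), which passed without LateDT replicate 3 (1.40, adjusted p = 0.0355), in DESeq2's Wald test (adjusted p = 0.0463) and with no filter on low counts (adjusted p = 0.00141).

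Within a list of 20 alarmins and antimicrobial proteins, 10 passed the filter without FullDT skin, and 8 of these were higher and 0 lower between FullDT and PBS skin, with a median log2 fold change of 1.14. Saa3, an acute-phase protein gene active in inflamed tissue, had 11 and 6 counts in PBS, 6, 4 and 4 in EarlyDT, 38, 48 and 25 in LateDT and 112, 144 and 144 in FullDT mice. Its log2 fold change was 3.81 in FullDT skin (SE 0.366, Benjamini-Hochberg adjusted p = 4.52e-05 by edgeR's quasi-likelihood test) and 1.96 in LateDT skin (adjusted p = 0.0225). Chil3, which encodes a chitinase-like protein of macrophages and neutrophils, had 1 count in PBS skin in all and 207, 133 and 111 in the FullDT mice, a ratio of rates of 271 (exact 95% interval 48.4 to 10721). Chil3 has a near-identical neighbour, so its value is uncertain. In LateDT against PBS skin, 5 of the 10 genes were higher and 0 lower. These were S100a9, Saa3, the defensin gene Defb1 (log2 fold change 0.64, Benjamini-Hochberg adjusted p = 0.00404 by edgeR's quasi-likelihood test), and Defb6 and the protease inhibitor gene Slpi, the last pair named after their values were seen. For EarlyDT against PBS skin 0 of 10 passed in that test, and between FullDT and LateDT skin 5 were higher and 0 lower. S100a7a was the most abundant gene in each library, at 40.8% to 60.1% of the summed level. That sum was 149 and 158 CPM in PBS, 132, 166 and 139.7 in EarlyDT, 198, 221 and 204 in LateDT and 234, 237 and 229.7 in FullDT mice. Defb3 had 0 counts in every library, Reg3g, Saa1 and Saa2 were at or under the floor, and Ltf, Ngp and Chil3 passed the expression filter only through FullDT skin.

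Set per kb of exon, S100a8 had the highest level of the 9 genes in each group, followed by S100a9 and Lcn2. For Cxcl1 (1875 bases) and Cxcl2 (2068 bases), the exon length used was 1 block over the whole gene. Their levels per kb, and their places in the orders below, are thus uncertain. In FullDT skin the order was S100a8 (22.0 ± 0.309 CPM per kb, SD, n = 3), S100a9 (19.1 ± 1.504), Lcn2 (4.16 ± 1.16), Csf3r (1.98 ± 0.713), Cxcl5 (1.42 ± 0.881), Cxcr2 (0.864 ± 0.336), Cxcl1 (0.600 ± 0.0756), Cxcl2 (0.210 ± 0.0617) and Ly6g (0.0371 ± 0.0336). From Csf3r to Cxcl1, the ranges of mean ± SD of neighbours in this order overlapped. In PBS skin, S100a8 was at 13.7 ± 2.99 CPM per kb, S100a9 at 3.66 ± 0.323, Lcn2 at 0.464 ± 0.0984, Csf3r at 0.383 ± 0.323, Cxcr2 at 0.255 ± 0.0460 and Cxcl1 at 0.105 ± 0.0888 (SD, n = 2), and Cxcl5, Cxcl2 and Ly6g were at the floor. The ranges of Lcn2 and Csf3r, and of Csf3r and Cxcr2, overlapped there. In EarlyDT skin Cxcl1 (0.287 ± 0.112) and Cxcl2 (0.254 ± 0.0416) stood directly after Lcn2, ahead of Cxcr2 (0.206 ± 0.0494) and Csf3r (0.0963 ± 0.0487 CPM per kb, SD, n = 3), with overlapping ranges for Cxcl1, Cxcl2 and Cxcr2. LateDT skin had Csf3r (0.327 ± 0.280), Cxcl1 (0.290 ± 0.121) and Cxcr2 (0.281 ± 0.0673 CPM per kb, SD, n = 3) after Lcn2, also with overlapping ranges.

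Ly6g (chromosome 15, 75155240 to 75159126) had 1 and 1 counts in the PBS mice, 0, 0 and 0 in EarlyDT, 0, 1 and 0 in LateDT and 1, 0 and 2 in FullDT mice. All 11 libraries were under the floor of 3 counts, so a difference between groups was not detectable at this depth. Ly6g belongs to a family of similar genes, and only uniquely assigned reads were counted, so its counts are uncertain. The defining surface marker of mouse neutrophils was thus near 0, and the 8 other genes were read by their own transcripts and not as a measure of neutrophil number.

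Of 20 neutrophil markers, which include 5 of the 9 genes, 9 passed the filter without FullDT skin, and 6 of these (S100a8, S100a9, Cxcr2, Csf3r, Mmp9 and Padi4) were higher and 0 lower between FullDT and PBS skin, with a median log2 fold change of 0.69. Mmp9, a gelatinase of neutrophil granules that keratinocytes and macrophages also make, had 82 and 85 counts in PBS, 64, 84 and 48 in EarlyDT, 155, 112 and 122 in LateDT and 228, 235 and 265 in FullDT mice. It rose by 1.41 on the log2 scale in FullDT skin (SE 0.182, Benjamini-Hochberg adjusted p = 0.000331 by edgeR's quasi-likelihood test). Ngp, a granule protein of immature neutrophils, had 3 and 5 counts in PBS, 1, 4 and 3 in EarlyDT, 5, 1 and 3 in LateDT and 51, 43 and 46 in FullDT mice, a ratio of rates of 10.5 between FullDT and PBS (exact 95% interval 5.19 to 24.8). Ngp, Ltf, Retnlg, Mmp8 and Stfa2l1 passed the expression filter only through FullDT skin. Ly6g and Mpo, the myeloperoxidase gene, were at or under the floor in every library. The summed level was 173 and 164 CPM in PBS, 166, 179 and 181 in EarlyDT, 208, 259 and 260.3 in LateDT and 235, 249.7 and 245 in FullDT mice, of which Padi4 made up 69.5% to 85.6%. Without Padi4 the sum was 32.9 and 34.1 CPM in PBS and 28.6, 25.7 and 28.1 in EarlyDT mice. It was 47.8, 43.6 and 39.6 CPM in LateDT and 71.5, 59.4 and 65.5 in FullDT mice. Both sums hold 5 of the 9 genes and those that passed the filter only through FullDT skin. Padi4, a histone-modifying enzyme gene, was higher in LateDT than in PBS skin (log2 fold change 0.56, Benjamini-Hochberg adjusted p = 0.0313 by edgeR's quasi-likelihood test). Il1r2, a decoy receptor gene, was lower in FullDT than in LateDT skin (log2 fold change -0.49, adjusted p = 0.0180, same edgeR test), where 4 of the 9 markers were higher and 1, Il1r2, lower. Between LateDT and PBS skin 2 of the 9 markers were higher (S100a9 and Padi4), and between EarlyDT and PBS skin 0 passed in that test. The part of neutrophil number in the values of the 8 genes was not tested.

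Markers of other cells moved in the same comparison. Of 15 monocyte and macrophage markers, 7 were higher and 0 lower between FullDT and PBS skin, among them the mannose receptor gene Mrc1 (log2 fold change 2.04, SE 0.318, Benjamini-Hochberg adjusted p = 0.00108 by edgeR's quasi-likelihood test) and the complement genes C1qb (2.29) and C1qc (2.16). Their summed level was 287 and 218 CPM in PBS, 227, 239 and 160.2 in EarlyDT, 220.4, 328 and 118 in LateDT and 822, 636 and 774 in FullDT mice, with Mrc1 as the most abundant gene and no marker at 0 in any library. Between LateDT or EarlyDT and PBS skin, 0 of the 15 passed in that test, and between FullDT and LateDT skin 9 were higher and 0 lower. Of 7 T cell markers, 5 passed the filter without FullDT skin, and 4 of these were higher and 0 lower in FullDT against PBS skin. Cd3d, of the T cell receptor complex, rose by 2.16 on the log2 scale (adjusted p = 5.88e-05 from the same edgeR test), and Cd8a and Cd8b1, at or under 3 counts outside FullDT skin, passed the filter only through FullDT skin. The summed level of T cell markers was 10.997 and 13.1 CPM in PBS, 10.4, 12.95 and 13.3 in EarlyDT, 16.1, 15.1 and 13.1 in LateDT and 53.7, 44.3 and 53.5 in FullDT mice, with Cd3g as the most abundant gene. Foxp3, which marks Tregs, did not pass in any comparison with PBS (log2 fold change -0.30 in FullDT skin). Between FullDT and LateDT skin, 4 of the 5 T cell markers that passed the filter without FullDT skin were higher and 0 lower.

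**Figure D3:**
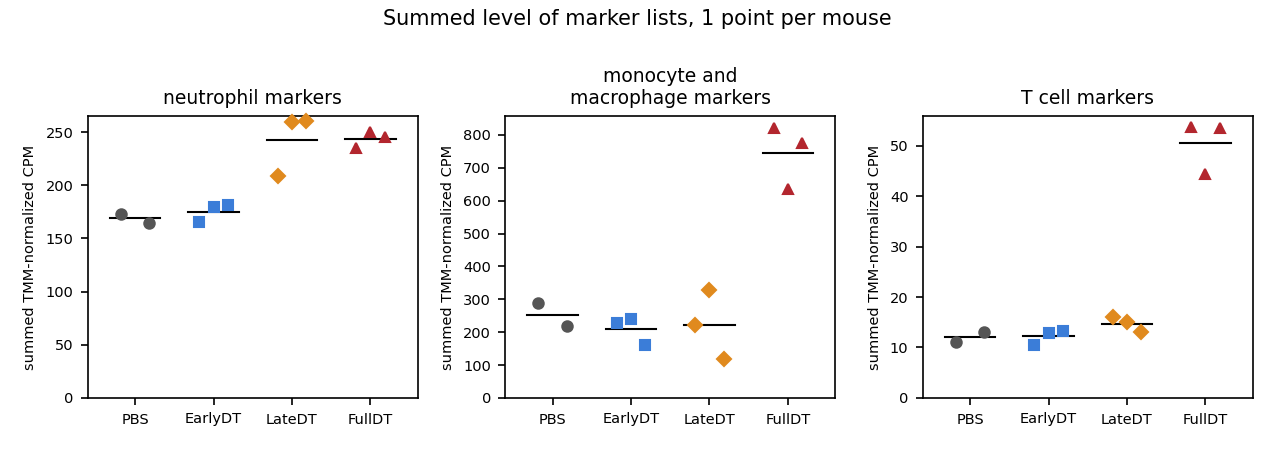
Summed TMM-normalized CPM of neutrophil markers, monocyte and macrophage markers and T cell markers in each library, 1 point per mouse with a bar at the group mean. FullDT mice lie above every other mouse for monocyte and macrophage markers and for T cell markers, which include Cd8a and Cd8b1. For neutrophil markers, most of whose sum is Padi4, they lie below LateDT replicates 2 and 3 (259 and 260.3 CPM). With Padi4 left out, the neutrophil marker sum was 59.4 to 71.5 CPM in FullDT mice and at most 47.8 CPM in any other mouse. Both sums include S100a8, S100a9, Cxcr2 and Csf3r, and genes that passed the expression filter only through FullDT skin. The separation thus carries no weight as a test.

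Stressed keratinocyte markers, which accompany wounding and inflammation of the epidermis, were higher for 7 and lower for 0 of 10 genes between FullDT and PBS skin, leaving out Sprr2d, which passed the filter only through FullDT skin. Krt6b had 97 and 74 counts in PBS, 72, 101 and 82 in EarlyDT, 156, 106 and 103 in LateDT and 2450, 2041 and 1439 in FullDT mice, with a log2 fold change of 4.46 (SE 0.368, Benjamini-Hochberg adjusted p = 1.58e-05 by edgeR's quasi-likelihood test). Krt6a rose by 1.20 (adjusted p = 1.77e-05) and Krt16 by 1.58 on the log2 scale (adjusted p = 0.000274, same edgeR test). Krt6a and Krt6b are near-identical, so their separate values are uncertain. In LateDT against PBS skin 3 genes were higher, with Krt6a at 0.72 (adjusted p = 0.00287, same edgeR test), and 1 was lower (Stfa1, named after its values were seen), and in EarlyDT skin 0 passed in that test. Between FullDT and LateDT skin 4 of the 10 were higher and 0 lower. The summed level was 5097 and 4828 CPM in PBS, 4946, 5574 and 5695 in EarlyDT, 6579, 6275 and 5937 in LateDT and 6860.0, 6828 and 6404 in FullDT mice, with Krt17 as the most abundant gene. Of 8 eosinophil and mast cell markers, 4 passed the filter without FullDT skin, and 0 of these passed in FullDT against PBS or against LateDT skin by edgeR's test. The eosinophil genes Prg2 and Siglecf passed the filter only through FullDT skin, with 29, 21 and 15 counts for Prg2 and 20, 15 and 13 for Siglecf in FullDT against 1 and 2, and 3 and 1, in PBS mice. The eosinophil peroxidase gene Epx was at or under the floor. Summed, this list ranged from 52.5 to 145 CPM over the 11 libraries, with the mast cell protease gene Mcpt4 on top, and the mast cell protease gene Cma1 did not pass (log2 fold change -0.40, adjusted p = 0.321, same edgeR test). Red blood cell markers were lower for 3 and higher for 0 of 5 tested genes between FullDT and PBS skin, with Hba-a2 at -1.01 on the log2 scale (adjusted p = 0.0109, same edgeR test). Between FullDT and LateDT skin 0 of the 5 passed, and Hbb-bs was the most abundant gene. Hba-a1 and Hba-a2 are near-identical, so their separate values are uncertain. The summed red blood cell level was 265 and 249 CPM in PBS, 237, 224 and 141 in EarlyDT, 206, 250.2 and 150.5 in LateDT and 159.9, 178 and 138 in FullDT mice, so that 1 EarlyDT and 1 LateDT mouse were as low as FullDT mice. The part of these cells in the values of the 8 genes was not tested.

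Of a list of 15 cytokines that call for neutrophils, 7 passed the filter without FullDT skin, and 3 of these were higher and 1 lower between FullDT and PBS skin. Il6 had 1 and 2 counts in PBS, 4, 4 and 3 in EarlyDT, 2, 4 and 2 in LateDT and 24, 31 and 17 in FullDT mice, and passed the filter only through FullDT skin. Il1b, an activator of chemokine transcription, had 31 and 18 counts in PBS, 18, 19 and 18 in EarlyDT, 46, 33 and 25 in LateDT and 100, 88 and 71 in FullDT mice, and rose by 1.72 (SE 0.346, Benjamini-Hochberg adjusted p = 0.00501 by edgeR's quasi-likelihood test). Il36g, of the same family and made by keratinocytes, rose by 0.56 (adjusted p = 0.0311, same edgeR test), as did Tnf by 0.81 (adjusted p = 0.0427), while Il36b was lower, at -0.55 (adjusted p = 0.0355). In LateDT against PBS skin 0 genes were higher and 2 lower, Il36b (log2 fold change -1.49, adjusted p = 0.00144, same edgeR test) and Il36a (-2.44, adjusted p = 0.0195). Between FullDT and LateDT skin 6 of the 7 were higher, and between EarlyDT and PBS skin 0 passed in that test. Csf3, which encodes the ligand of the Csf3r product, had 3 and 2 counts in PBS, 5, 0 and 0 in EarlyDT, 2, 0 and 2 in LateDT and 0, 1 and 1 in FullDT mice and was not tested. Il17a had 0 counts in every library, and Il17f and Il22 were at or under the floor, so a difference in them was not detectable at this depth. Summed over the list, the level was 21.2 and 19.5 CPM in PBS, 16.2, 21.1 and 19.9 in EarlyDT, 14.2, 16.2 and 13.7 in LateDT and 35.1, 28.1 and 26.7 in FullDT mice, with Il36g as the most abundant gene. Csf3, Tnf and Il36a were named after their values were seen.

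Regulators through which interleukin and NF-kB signals reach these chemokine and alarmin genes formed a list of 9, all tested, with 8 higher and 0 lower between FullDT and PBS skin and a median log2 fold change of 0.63. Bcl3, a partner of NF-kB proteins in the nucleus, rose by 1.82 on the log2 scale (SE 0.174, Benjamini-Hochberg adjusted p = 4.43e-05 by edgeR's quasi-likelihood test). Cebpd, a transcription factor gene of the acute-phase response, rose by 1.44 (adjusted p = 0.000140), and Zc3h12a, whose product degrades cytokine transcripts, by 1.01 (adjusted p = 0.000116, same edgeR test). Cebpb, the most abundant of the list, was the gene that passed in LateDT against PBS skin (0.28, SE 0.0652, adjusted p = 0.0351, same edgeR test). Between EarlyDT and PBS skin 0 of the 9 passed in that test, and between FullDT and LateDT skin 6 were higher. The summed level was 418 and 399.6 CPM in PBS, 420.4, 425 and 454 in EarlyDT, 502, 484 and 456 in LateDT and 593, 606 and 535 in FullDT mice.

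Across the 11 libraries, likeness was measured as the mean absolute difference between log2 CPM values, each gene centred on its own mean, and the 3 closest tested genes are given for 7 of the 8 genes. For S100a8 they were Ada (0.121), Eno1 (0.133) and Cd96 (0.140), and for S100a9 Prf1 (0.216), Irgc1 (0.217) and A530040E14Rik (0.225). Those of Lcn2 were Ms4a4d (0.174), Mlkl (0.185) and B2m (0.195), and those of Cxcr2 were Pik3cd (0.141), Il1b (0.151) and Ncf1 (0.157). Among the chemokine genes, Cxcl5 was nearest to Krt6b (0.364), Col6a5 (0.390) and Gm4847 (0.396), Cxcl1 to Gm23864 (0.255), Tlr11 (0.271) and Gm15690 (0.286), and Cxcl2 to Muc1 (0.366), P2rx3 (0.405) and Gm47147 (0.418). Irgc1, A530040E14Rik, Gm15690, Gm47147 and Gm4847 had mean levels under the floor in at least 1 group, as had Cxcl2 and Cxcl5, so these values rest partly on floor counts and the prior count. No gene of the 9 was among the 3 closest of another. Between the 8 genes, the smallest differences were 0.435 for Lcn2 with S100a9 and 0.437 for Cxcr2 with S100a9, and the neighbours Cxcl1 and Cxcl2 differed by 0.493 and S100a8 and S100a9 by 0.716.

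Promoter sequences from RefSeq (GRCm38.p6, 250 bases before to 50 after the start of each gene) were searched on both strands for the kB-type letters GGANTTTCC, as NF-kB proteins bind, and for the C/EBP-type letters TTGCNNAA. Of all 32817 promoters, 412 (1.26%) held the first and 3546 (10.8%) the second. A promoter was given for 8 of the 9 genes, and Cxcl5, which had none, was not searched. The kB-type letters were found in Cxcl1, 70 bases before its start, in Cxcl2, 96 bases before, and in the neighbouring ligand gene Cxcl3, 72 bases before, and the C/EBP-type letters in S100a9 (236 bases before), Lcn2 (216 bases before) and 1 of the 2 Ly6g windows (232 bases before). Distances count from RefSeq starts, which for some genes differ from the GENCODE coordinates given above. The whole Lcn2 window (chromosome 2, 32387690 to 32387989) lay inside its GENCODE coordinates (32384633 to 32388252). Its letters are thus before the start only by RefSeq. S100a8, Cxcr2 and Csf3r held neither set of letters in this window, nor did the ligand genes Cxcl15 and Ppbp, and Pf4 held only the C/EBP-type letters (212 bases before). The stretches of Cxcl1 (chr5:90891105-90891224), Cxcl2 (chr5:90903759-90903878) and Cxcl3 (chr5:90785961-90786080) are shown, all on the plus strand and from 140 to 21 bases before the RefSeq start, because these 3 ligand genes were higher in FullDT than in PBS skin and hold the same letters in capitals. The Cxcl2 stretch ends beyond the GENCODE start of that gene (90903871). A match is a description of the letters and not evidence of a bound site.
Cxcl1: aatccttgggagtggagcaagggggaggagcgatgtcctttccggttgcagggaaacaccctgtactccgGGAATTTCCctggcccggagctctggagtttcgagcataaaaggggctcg
Cxcl2: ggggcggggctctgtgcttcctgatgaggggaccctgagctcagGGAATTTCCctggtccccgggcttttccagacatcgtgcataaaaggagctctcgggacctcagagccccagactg
Cxcl3: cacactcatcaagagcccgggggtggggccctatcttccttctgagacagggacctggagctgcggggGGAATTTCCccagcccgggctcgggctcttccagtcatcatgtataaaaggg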

How the data were processed

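The authors deposited raw counts of reads per gene for whole skin of 11 mice. Per the submitters' processing notes, reads were trimmed with Trimmomatic 0.36, mapped with STAR 2.5.2b to GRCm38 and counted with featureCounts (Subread 1.5.2). The strand setting and annotation release are not given in the sources used here, so overlapping and antisense genes cannot be told apart. Groups came from the labels, which put all libraries in batch 1. Coordinates and exon lengths came from GENCODE M21 on GRCm38, and 174 genes had no name there.

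Tests ran in R 4.3.3, with the packages edgeR 4.0.16, DESeq2 1.42.0 and limma 3.58.1. Genes were filtered with filterByExpr by group, which left 18375 genes, and scaled by TMM. In 1 fit of all 11 libraries with a mean per group, 6 pairs of groups were compared by edgeR's quasi-likelihood test, and p-values were adjusted by Benjamini-Hochberg across all 18375 genes (threshold 0.05). Log2 CPM used a prior count of 2, and standard errors (SE) were derived from the log2 fold change and the F statistic (absolute value over root F). Ratios of rates use exact conditional binomial intervals on summed counts. The tests were checked on simulated data. Tables and figures were made with Python 3.11.15, scipy 1.17.1, pandas 2.3.3 and matplotlib 3.10.9. Over 10 pairs of replicates the median chi-square was 1.02 to 2.85, above the 0.455 of counting error alone.

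The members and lists were chosen with earlier results of these data known. The 12 lists cover 127 genes: chemoattractant ligands, their receptors, inducing cytokines, regulators, alarmins, and markers of neutrophils, monocytes and macrophages, stressed keratinocytes, skin tissue, T cells, eosinophils and mast cells, and red blood cells. Il36a, Il36b and Il36g were matched by older symbols, and Siglecf and Areg by gene ID. Beside the members, the rule named from each list the 3 genes with the smallest p between FullDT and PBS skin and the first by p between EarlyDT or LateDT and PBS skin, and the 3 genes most like each member. The genes most like Csf3r are not reported here. Other genes named, such as markers at the floor or the most abundant of a list, were chosen after their values were seen. Protein sequences were not used here. Alternatives were other scalings, DESeq2's Wald test, other filters, a fit of only the groups compared, sex as a covariate, and each library left out in turn.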

Additional observations from a re-analysis of the deposited data

Results flagged for a closer look

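S100a8 and S100a9 differed between early and late depletion in the direct test of EarlyDT against LateDT skin, with log2 fold changes of -0.66 for S100a8 and -1.42 for S100a9. In all 3 EarlyDT mice both transcripts were below those of all 3 LateDT mice. The S100a8 call was lost without EarlyDT replicate 2, EarlyDT replicate 3 or LateDT replicate 3. It was also lost with only the 2 groups compared in the fit. The S100a9 call was kept in each of these fits. The groups also differ in age, with harvest on P9 and P13, so treatment and age cannot be told apart here. Groups of 2 or 3 mice are too small for a test of single deviating libraries.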

How the results depend on the processing

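All 8 tested genes kept an upward direction between FullDT and PBS skin under those of 7 other settings in which they were tested and with each of 11 libraries left out. S100a9 and Lcn2 also kept their calls in all of these. With at least 10 counts asked of every library, Cxcl1, Cxcl2, Cxcl5 and Csf3r were not tested. Values of the 8 genes in the 3 comparisons with PBS and in FullDT against LateDT skin kept direction and call in 197 of the values under other settings and in 327 with 1 library left out, gained a call in 5 and 1, and lost it in 3 and 19. A total of 5 turned direction, all between LateDT and PBS skin: Cxcl5 to 0.67 without PBS replicate 1 and 0.22 without LateDT replicate 1, Cxcr2 to -0.0433 without PBS replicate 2, and Csf3r to 1.02 without PBS replicate 1 and 0.17 without LateDT replicate 3. None of these had passed, and those of Cxcl5 rest on at most 3 counts per library. In the other left-out fits of these 3 values the lowest or highest was -0.64 for Cxcl5 and -1.13 for Csf3r without LateDT replicate 2, and 0.33 for Cxcr2 without PBS replicate 1.

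With no filter beyond 1 count, 2 of the 9 genes passed for EarlyDT against PBS (Cxcl2 and Csf3r), 2 for LateDT against PBS and 4 for EarlyDT against LateDT, and genes in all were 54, 1790 and 2173, in place of 1, 836 and 1173. With at least 10 counts in every library, 4 of the 9 genes were tested, among 15633 genes. Of the 4, 4 passed for FullDT against PBS, 3 for FullDT against LateDT and 4 for FullDT against EarlyDT skin. Genes in all were 3479, 2700 and 3754 in these comparisons, and 0 for EarlyDT against PBS. With only the groups compared in the fit, 0 of the 9 passed for LateDT against PBS and 1 (S100a9) for EarlyDT against LateDT. Genes in all were 0 for EarlyDT against PBS, 154 for LateDT against PBS and 540 for EarlyDT against LateDT. With library size alone as scaling, 0 passed for LateDT against PBS. DESeq2's Wald test, which was run without the expression filter and so changed both choices, gave 8 genes in all for EarlyDT against PBS, and called Lcn2 in place of S100a9 for LateDT against PBS; sex as a covariate gave 0 genes for EarlyDT against PBS. Beyond the fewer genes or libraries in such fits, the cause was not tested.

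With 1 library left out, genes in all ranged from 0 to 7 for EarlyDT against PBS, 292 to 903 for LateDT against PBS (292 without PBS replicate 1, 377 without PBS replicate 2), 2026 to 4520 for FullDT against PBS, 1987 to 3385 for FullDT against LateDT (1987 without FullDT replicate 1) and 353 to 1248 for EarlyDT against LateDT (573, 353 and 619 without EarlyDT replicate 1, 2 and 3). Of the 8 tested genes, 0 to 2 passed for LateDT against PBS, 4 to 8 for FullDT against PBS, 6 to 7 for FullDT against EarlyDT and 1 to 2 for EarlyDT against LateDT. For FullDT against EarlyDT skin, genes in all ranged from 3065 (without FullDT replicate 1) to 4806 (without LateDT replicate 1). A fit that leaves 1 PBS mouse assumes that it varies like the other groups. No paired analysis was possible because the labels carry no replicate numbers. Depth limits Ly6g, Cxcl2 and Cxcl5, which had at most 3 counts in PBS libraries.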
